A study of Nothobranchius furzeri with 30 samples.

Results

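IGF2BP1 and IGF2BP3, members of a family of mRNA-binding proteins best known from embryos, had lower transcript levels in the retinas of older than of young killifish. Loci were selected by name, as every locus of the authors' deposited annotation named as an IGF2BP, LIN28 or HMGA gene. Of 24989 loci, 4 carried such a name, and all 4 passed the filter on low counts that 13975 loci passed. These were IGF2BP1 (XLOC_021934), IGF2BP3 (XLOC_015046), IGF2BP2A (XLOC_020292) and HMGA1 (XLOC_021784). IGF2BP1 and IGF2BP3 were proposed for description because of their difference between 18 and 6 weeks, so their differences between ages are given as values with errors and carry no test. No locus was named LIN28. Through the annotation's second name or the RefSeq symbol (assembly NfurGRZ-RIMD1, used for names only), looked up afterwards, CU207276.4 (XLOC_016562) was hmga2, CABZ01076796.1 (XLOC_009023) was lin28b and CABZ01041200.1 (XLOC_010487) was lin28aa.

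IGF2BP proteins bind mRNAs and govern where these are carried, how long they last and when they are translated. In mammals, IGF2BP1 and IGF2BP3 are abundant in the embryo and scarce in most adult tissues, whereas IGF2BP2 persists in adults. LIN28 proteins block the maturation of let-7 microRNAs, which in turn repress IGF2BP, HMGA and other growth genes in mammalian cells, and HMGA proteins bend DNA and open chromatin. Fish retinas add neurons throughout life from stem cells at the retinal margin.

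Retinal RNA came from African turquoise killifish (Nothobranchius furzeri) of the inbred GRZ-AD strain, wild type, untreated and female, at 6, 12 and 18 weeks of age. Each age had 10 fish, and a sample held both retinas of 1 fish after the retinal pigment epithelium (RPE) was taken off. QuantSeq 3′ libraries, which read the 3′ end of polyadenylated RNA, gave between 3552371 and 5840792 counts on loci per fish. Levels are given as CPM, the count scaled to a common library size with TMM factors that correct for differences in RNA composition, and are not compared between genes. Fish of 1 age correlated with each other at a Pearson r of 0.873 to 0.972, and 18-week fish 1 stood apart on the first principal component (101 against 27.7 in the next fish). Since whole retinas were measured, fewer cells of a type and less RNA per cell cannot be told apart.

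IGF2BP1 was highest at 6 weeks and lowest at 18 weeks. Its lowest, median and highest levels were 6.83, 8.65 and 10.5 CPM in 6-week fish, 0.440, 3.42 and 7.60 CPM in 12-week fish, and 0.522, 1.79 and 2.43 CPM in 18-week fish. The highest 18-week fish was lower than the lowest 6-week fish, a separation that 1.33% of the tested loci shared. At 12 weeks 9 of 10 fish were under the whole 6-week range (at 0.122% of the tested loci all 10 were), and the exception was fish 1 at 7.60 CPM, with the next fish at 4.02 CPM. Each 18-week fish was under the 12-week median, a pattern not counted over all tested loci. None was under the whole 12-week range, because 12-week fish 8 held the lowest level of any fish. That last separation was complete at 0.379% of the tested loci. Behind these levels stood at least 27 and at most 43 counts per fish at 6 weeks, at least 2 and at most 34 at 12 weeks, and at least 3 and at most 13 at 18 weeks. Between 6-week fish the coefficient of variation was 11.5%, against 16.5% from counting alone, so that any variation between these fish was not detectable at this depth. At 12 weeks it was 52.4%, against 26.0% from counting, and at 18 weeks 43.3%, against 34.9%.

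IGF2BP3, which shares the RNA-binding domains of IGF2BP1, had the same order of ages. Its lowest, median and highest levels were 4.04, 7.23 and 11.2 CPM at 6 weeks, 1.51, 3.58 and 5.27 CPM at 12 weeks, and 0.662, 1.20 and 2.97 CPM at 18 weeks. Again no 18-week fish reached the 6-week range. The middle age was less separate for this gene, with 6 of 10 fish at 12 weeks under the 6-week range and 7 of 10 at 18 weeks under the 12-week range. Such partial separations were not counted over all tested loci, of which 0.122% and 0.379% were completely separate at these steps. In both steps the 10 later fish were all under the median of the earlier age, a pattern not counted over all tested loci. The 3 fish of 18 weeks inside the 12-week range were fish 3 at 2.97 CPM, fish 4 at 1.77 CPM and fish 6 at 1.58 CPM. Counts per fish were 17 to 48, 6 to 22 and 3 to 12 at 6, 12 and 18 weeks. The 6-week fish split more widely than for IGF2BP1, with a coefficient of variation of 31.6%, against 17.3% from counting alone.

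**Figure D1:**
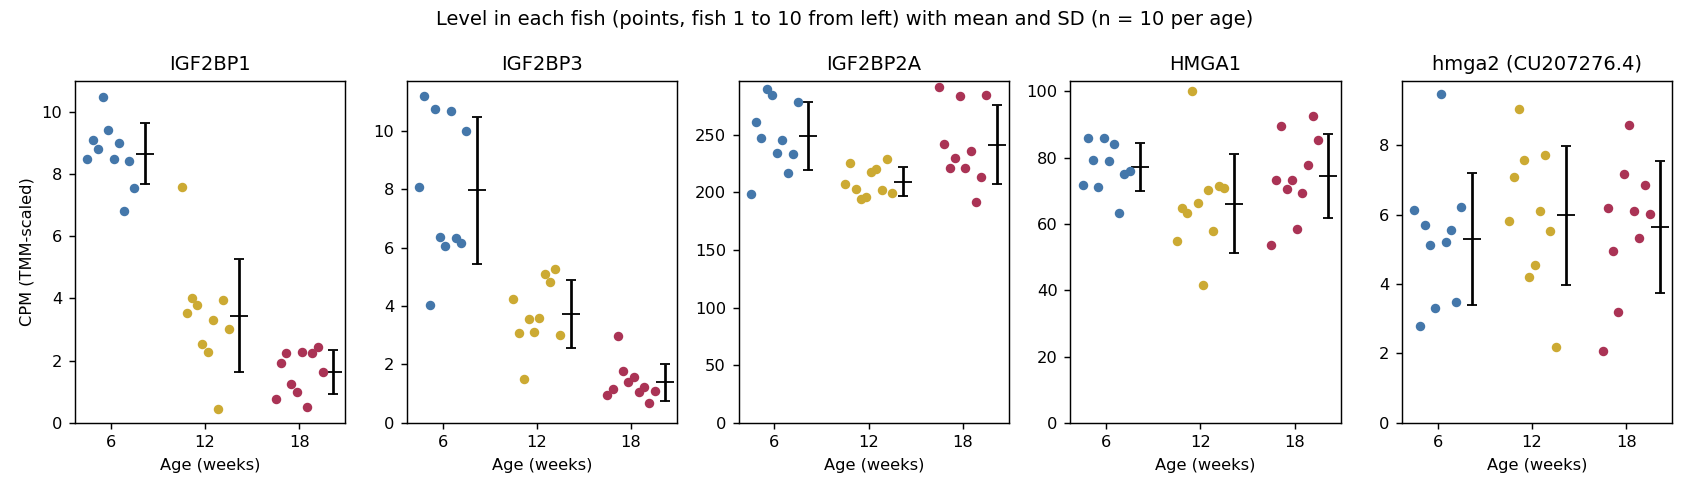
TMM-scaled CPM of each locus (y axes, each from 0) in each of 30 fish by age in weeks (x axes), with points in the order of fish 1 to 10 and the mean with SD beside them (n = 10 per age). IGF2BP1 and IGF2BP3 step down at each age, while IGF2BP2A, HMGA1 and hmga2 overlap at all ages.

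Averaged over fish, IGF2BP1 had 1.63 ± 0.704 CPM at 18 weeks, against 8.66 ± 0.997 CPM at 6 weeks (SD, n = 10 each), which is 0.188 of the 6-week mean. IGF2BP3 had 1.38 ± 0.642 CPM at 18 weeks, against 7.97 ± 2.52 CPM at 6 weeks, which is 0.174 of the 6-week mean. The fitted log2FC at 18 against 6 weeks was -2.41 (SE 0.254) for IGF2BP1 and -2.52 (SE 0.235) for IGF2BP3, the fifth and the fourth lowest of all 13975 tested loci. At this contrast 2.03% of the tested loci were called lower, where a call means an FDR (Benjamini-Hochberg adjusted p) under 0.05 in edgeR's quasi-likelihood test and a log2FC of at least 1 in size. This contrast put both genes forward, so nothing is read from their place in it.

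Both genes were already lower in middle-aged fish. The 12-week mean of IGF2BP1 was 3.45 ± 1.81 CPM, which is 0.398 of the 6-week mean, and the log2FC at 12 against 6 weeks was -1.33 (SE 0.236). For IGF2BP3 the 12-week mean was 3.73 ± 1.16 CPM, which is 0.468 of the 6-week mean, with a log2FC of -1.09 (SE 0.211). Only 0.165% of the tested loci were called lower at this step. Between 12 and 18 weeks the log2FC was -1.08 (SE 0.274) for IGF2BP1 and -1.43 (SE 0.250) for IGF2BP3, at a step where 0.766% of the tested loci were called lower. The 3 contrasts share fish, so they are not separate evidence. IGF2BP1 at this later step rested partly on 1 fish, since its log2FC was -0.87 without 12-week fish 1, which had the highest 12-week level.

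**Figure D2:**
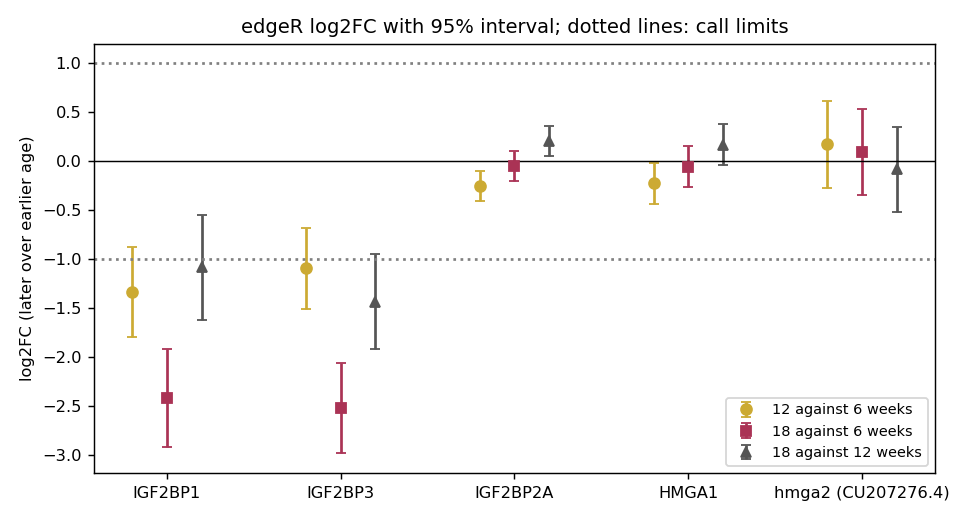
Fitted log2FC of each locus (y axis, later over earlier age) with 95% intervals, for 12 against 6, 18 against 6 and 18 against 12 weeks, with dotted lines at the call limits of 1 and -1. IGF2BP1 and IGF2BP3 lie below -1 in all 3 contrasts, and the other loci lie between -0.25 and 0.21.

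Whether the fall was even across the ages was described with another contrast than the one that put the genes forward. It set the 12-week level against the midpoint of the 6- and 18-week levels on the log2 scale. It shares fish with the choosing contrast, and the genes were chosen with earlier results known. Its FDR values are therefore no independent test. IGF2BP1 lay 0.13 below that midpoint (log2 difference -0.13, SE 0.230, 95% interval -0.58 to 0.32, FDR = 0.890 in edgeR's quasi-likelihood test). IGF2BP3 lay 0.17 above it (SE 0.194, 95% interval -0.21 to 0.55, FDR = 0.799). Both 95% intervals included no departure from the midpoint. For comparison, 0.236% of the tested loci lay below the midpoint and 0.694% above it at an FDR under 0.05. The IGF2BP1 value depended on single fish and was 0.01 without 12-week fish 8.

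Within an age, no relation between the 2 genes was detectable. Pearson's r of their log2 CPM was 0.26 at 6 weeks (Spearman's rho 0.43, n = 10, p = 0.480), -0.20 at 12 weeks (rho -0.07, p = 0.539) and 0.21 at 18 weeks (rho 0.14, p = 0.571), by two-sided permutation tests with 100000 resamples. After adjustment over the 21 relations examined, each of these p values was 0.749. Permutation p values of rho were 0.219, 0.864 and 0.708 at 6, 12 and 18 weeks (adjusted 0.918, 0.936 and 0.936). Without the 2 fish farthest from the median IGF2BP1 level, r was -0.13, -0.11 and -0.11 at 6, 12 and 18 weeks. Single fish differed between the genes. In 12-week fish 8, IGF2BP1 was at 0.440 CPM while IGF2BP3 was at 4.84 CPM, the third highest level of that age. In 12-week fish 1, IGF2BP1 was at 7.60 CPM, within the range of 6-week fish, while IGF2BP3 was at 4.25 CPM.

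**Figure D3:**
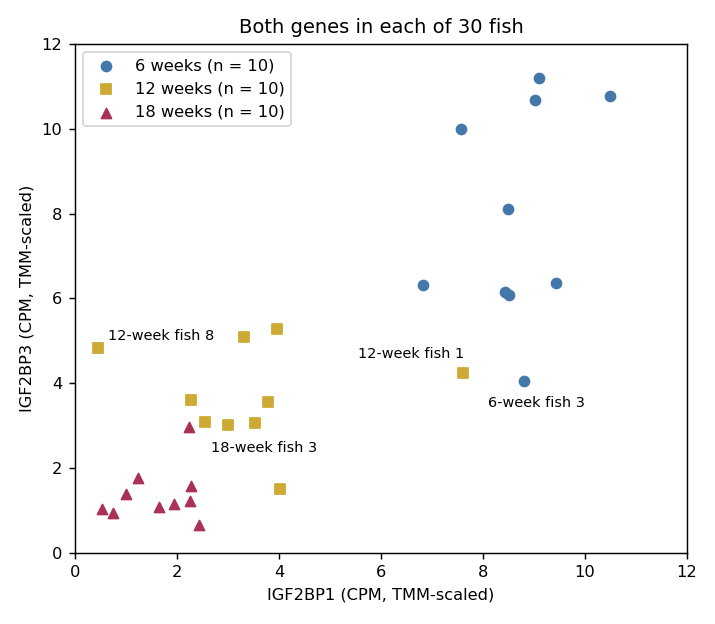
IGF2BP3 (y axis) against IGF2BP1 (x axis) in TMM-scaled CPM, with a point for each of 30 fish and a marker for each age. The 6-week fish sit at the upper right and the 18-week fish at the lower left, and r within ages was 0.26, -0.20 and 0.21 at 6, 12 and 18 weeks.

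The remaining loci of the selection did not follow this course. IGF2BP2A, the family member that persists in adult mammals, had lowest, median and highest levels of 198, 246 and 289 CPM at 6 weeks, 195, 205 and 229 CPM at 12 weeks, and 191, 233 and 291 CPM at 18 weeks. The ranges overlapped at all ages. At 18 against 6 weeks its log2FC was -0.04 (SE 0.0786, 95% interval -0.20 to 0.11, FDR = 0.720). Each of the 10 fish at 12 weeks was under the 6-week median, a pattern not counted over all tested loci. This dip at 12 weeks did not pass the test across all loci (log2FC = -0.25, SE 0.0789, FDR = 0.0910 at 12 against 6 weeks). Fitted with only the 20 fish of these ages the FDR was 0.0390, with DESeq2 it was 0.0481, and without 18-week fish 1 it was 0.0309.

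HMGA1, a chromatin protein of embryonic and dividing cells in mammals, had lowest, median and highest levels of 63.5, 77.5 and 86.1 CPM at 6 weeks, 41.7, 65.5 and 100.2 CPM at 12 weeks, and 53.6, 73.2 and 92.6 CPM at 18 weeks. Between 18 and 6 weeks the log2FC of HMGA1 was -0.05 (SE 0.106, 95% interval -0.26 to 0.15, FDR = 0.741). Between 12 and 6 weeks it was -0.22 (SE 0.107, 95% interval -0.43 to -0.01), which did not pass the test across all loci (FDR = 0.314). The locus identified as hmga2, a let-7 target in mammals, had 2.80, 5.39 and 9.47 CPM at 6 weeks, 2.19, 5.96 and 9.05 CPM at 12 weeks, and 2.07, 6.044 and 8.58 CPM at 18 weeks. For hmga2 the log2FC at 18 against 6 weeks was 0.09 (SE 0.224, 95% interval -0.35 to 0.53, FDR = 0.790). As IGF2BP1 and IGF2BP3 were put forward for this contrast, their log2FC is no yardstick here. The intervals of IGF2BP2A, HMGA1 and hmga2 lay within the call limits of -1 and 1. Scaling by library size alone, which shifts the median of all tested loci by 0.32 at this contrast against 0.02 with TMM, turned the sign of 2 of them, to 0.27 for IGF2BP2A (FDR = 0.00918) and 0.25 for HMGA1 (FDR = 0.0705).

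LIN28, the let-7 antagonist, was close to the limit of detection at every age. The lin28b locus had 5 counts over the 10 fish of 6 weeks, 2 over those of 12 weeks and 6 over those of 18 weeks. No fish had more than 2 counts. The lin28aa locus had 2 counts over the 6-week fish and 0 over the 12- and the 18-week fish. With 44176065 counts at 12 weeks a count of 0 allows up to 0.0679 CPM (3 counts), by counting error alone. Neither locus passed the filter, so no test was made.

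A deposited annotation of the authors' single-cell data lists the number and the percent of cells in which a gene was detected, pooled over cells. Together these values imply a total of 39140 cells. The paper reports fewer captured cells, and how the totals relate is not given. IGF2BP1 was detected in 762 cells (1.95%) and IGF2BP3 in 681 cells (1.74%). HMGA1 was detected in 14846 cells (37.9%), IGF2BP2A in 8931 cells (22.8%), hmga2 in 481 cells (1.23%), lin28b in 141 cells (0.360%) and lin28aa in 26 cells (0.0664%). The pooled values separate neither age nor cell type, and they cannot tell stray RNA from expression.

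Transcripts of RPE left on the retina fell with age beside both genes. The paper reports that RPE clung more firmly to the retinas of young fish and was harder to take off. It proposes that some genes found lower with age may be an artifact of this step. Of 13 tested loci that mark RPE, 10 were called lower at 18 against 6 weeks, against 2.03% of all tested loci. The median log2FC of the 13 was -1.42. RPE65A, the retinoid isomerase that defines RPE, had a log2FC of -1.51 (SE 0.238, FDR = 8.24e-06). The RPE score, the mean log2 CPM of those 13 loci, was 5.18 ± 0.278, 4.52 ± 0.691 and 4.03 ± 0.333 at 6, 12 and 18 weeks (SD, n = 10 each). Summed CPM of the loci ranged between 858 and 1759, between 328 and 1918, and between 380 and 889. With the RPE score as a covariate, the log2FC at 18 against 6 weeks was -2.10 (SE 0.378) for IGF2BP1 and -2.64 (SE 0.338) for IGF2BP3. At 12 against 6 weeks it was -1.17 (SE 0.278) and -1.16 (SE 0.255). At 18 against 12 weeks it was -0.93 (SE 0.304) for IGF2BP1, under the call limit, and -1.48 (SE 0.272) for IGF2BP3.

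Both genes can also be set side by side in fish with like RPE scores. The lowest RPE score at 6 weeks was 4.69 in fish 3, the highest at 18 weeks was 4.63 in fish 9, and 12-week fish 1 had 4.67. In these fish, singled out for their RPE scores, IGF2BP1 was at 8.80, 7.60 and 2.43 CPM and IGF2BP3 at 4.04, 4.25 and 0.662 CPM at 6, 12 and 18 weeks. The 12-week fish held the highest IGF2BP1 level of its age, where the median was 3.42 CPM and the next fish had 4.02 CPM. The 18-week fish held the highest IGF2BP1 and the lowest IGF2BP3 level of its age (medians 1.79 and 1.20 CPM). The 6-week fish held the lowest IGF2BP3 level of its age (median 7.23 CPM). These fish are thus not typical of their ages. With 1 fish per age, and an RPE score that fell with age, the part of RPE was not tested. The 12-week fish with the most RPE, fish 7 (score 5.60) and fish 2 (5.39), had 3.31 and 3.53 CPM of IGF2BP1, under the whole 6-week range, and 5.09 and 3.06 CPM of IGF2BP3. In 12-week fish 8, which had the least RPE (3.30), IGF2BP1 was lowest. Within ages, r of the RPE score with IGF2BP1 was -0.52, 0.49 and 0.04 at 6, 12 and 18 weeks (rho -0.55, 0.21 and 0.35, adjusted p of r from permutation tests 0.745, 0.745 and 0.935). With IGF2BP3 it was 0.17, -0.04 and -0.51 (rho -0.07, -0.09 and -0.48, adjusted p of r 0.786, 0.935 and 0.745).

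**Figure D4:**
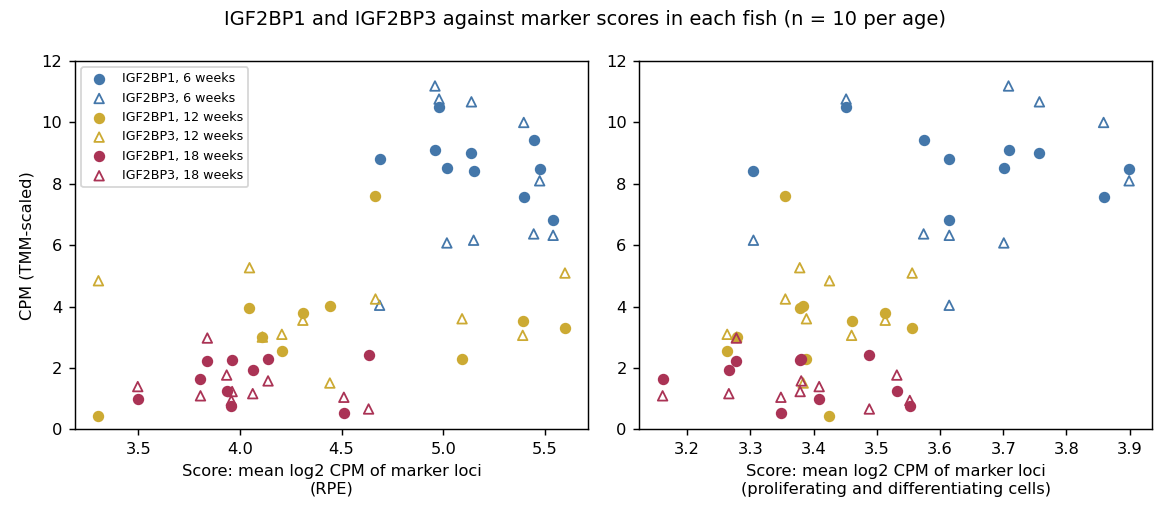
IGF2BP1 (filled circles) and IGF2BP3 (open triangles) in TMM-scaled CPM (y axis) against the RPE score (left) and the score of proliferating and differentiating cells (right), each the mean log2 CPM of the marker loci, in 30 fish by colour of age. Between RPE scores of 4.63 and 4.69 lay 1 fish of each age, with IGF2BP1 at 8.80, 7.60 and 2.43 CPM at 6, 12 and 18 weeks. The 12-week and the 18-week fish each held the highest IGF2BP1 level of its age.

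Markers of proliferating and differentiating cells, the progeny of retinal stem cells, also declined in part. Of 23 tested loci, 3 were called lower and 0 higher at 18 against 6 weeks, and 6 passed the FDR alone as lower and 3 as higher. Of all tested loci, 2.03% were called lower and 1.31% higher, and the FDR alone was passed by 15.2% as lower and 14% as higher. The called ones were the cell cycle gene CCND1 (log2FC = -1.13, SE 0.344, FDR = 0.0117), the Notch target HES5 (XLOC_016419, -1.09, SE 0.274, FDR = 0.00250) and STMN1A, a tubulin-binding protein of growing neurons (-1.02, SE 0.209, FDR = 0.000329). Among the loci that passed the FDR as higher was MCM6, a helicase subunit of DNA replication (0.48, SE 0.119, FDR = 0.00216). The median of the list was -0.26, against 0.02 over all tested loci, and 0.06, against 0.32, with library size alone. With library size alone, or with the RPE score as a covariate, 0 of the 23 were called lower, and 2 were without 18-week fish 1. The score of the list was 3.65 ± 0.180, 3.40 ± 0.0929 and 3.38 ± 0.124 at 6, 12 and 18 weeks (SD, n = 10 each), while summed CPM per fish ran to 1369, 1322 and 1494 at the highest and to 1177, 1174 and 1245 at the lowest.

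The part of these cells in the lower levels of IGF2BP1 and IGF2BP3 was not tested. Within ages, r of the proliferation score with IGF2BP1 was -0.29, -0.03 and -0.28 at 6, 12 and 18 weeks (rho -0.28, -0.05 and -0.12), and with IGF2BP3 it was 0.31, 0.31 and -0.23 (rho 0.32, 0.27 and -0.13). Adjusted p values of r ranged between 0.749 and 0.935 by permutation tests. The library total was likewise tried, and none of the 21 adjusted p values was below 0.745. Of the other cell types, immune markers had 2 of 9 tested loci called higher at 18 against 6 weeks, against 1.31% of all tested loci. By FDR alone 5 of the 9 passed as higher (55.6%) and 0 as lower. Of 6 Müller glia markers, 4 passed the FDR as higher without a call. No locus was called among 15 of photoreceptors, 21 of inner retinal neurons, 6 of oligodendrocytes, 2 of lens or 2 of red blood cells. The FDR alone was passed as lower and higher by 3 and 4 loci of photoreceptors, 2 and 6 of inner retinal neurons and 1 and 2 of oligodendrocytes. It was also passed by 1 lens locus as higher and 1 red blood cell locus as lower. Of all tested loci, 15.2% passed as lower and 14% as higher. Photoreceptor markers, which define retina, summed to between 18623.5 and 26957.6 CPM per fish, and lens markers to between 1.62 and 6.38 CPM.

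Loci of the let-7 and LIN28 axis, in which IGF2BP genes are placed in mammals, passed the test in both directions. Of 25 tested loci, 3 were called lower and 0 higher at 18 against 6 weeks, against 2.03% and 1.31% of all tested loci. The FDR alone was passed by 7 as lower (28% of the list, against 15.2% of all tested loci) and by 4 as higher (16%, near the 14% of all tested loci). The list's median log2FC was -0.10, against 0.02 over all tested loci, and 0.21, against 0.32, with library size alone. IGF1RA, a receptor for insulin-like growth factors, fell to 10.1 ± 3.34 CPM at 18 weeks, against 23.8 ± 4.94 CPM at 6 weeks (SD, n = 10 each, log2FC = -1.24, SE 0.177, FDR = 1.54e-06). Its level at 12 weeks was 24.1 ± 6.42 CPM, so its fall lay in the later step (log2FC = -1.25, SE 0.177, FDR = 6.15e-06 at 18 against 12 weeks). It was the only locus of the list called lower at that step, and 2 were without 18-week fish 1. ARID3B (XLOC_019578), a DNA-binding let-7 target in mammals, fell to 5.60 ± 3.01 CPM at 18 weeks, against 11.8 ± 3.31 CPM at 6 weeks (log2FC = -1.08, SE 0.228, FDR = 0.000425). The third called locus was CCND1, which also counts among the proliferation markers. IGF1RB, which shares the list with IGF1RA, had a log2FC of 0.43 (FDR = 0.000287) at 18 against 6 weeks with library size alone. At that scaling the median of all tested loci was 0.32. Without 18-week fish 1 IGF1RB had 0.12 (FDR = 0.277), and with the RPE score as a covariate 0.03 (FDR = 0.910).

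Parts of the let-7 machinery passed the FDR at smaller folds. DIS3L2, the nuclease that degrades the let-7 precursors marked through LIN28, had a log2FC of -0.94 at 18 against 6 weeks (SE 0.246, FDR = 0.00365). ZCCHC11, which adds the uridine mark, had -0.33 (SE 0.0879, FDR = 0.00392), and DICER1, which cuts microRNA precursors, had 0.52 (SE 0.152, FDR = 0.00842). With library size alone DIS3L2, ZCCHC11 and DICER1 had -0.63 (FDR = 0.0283), -0.04 (FDR = 0.774) and 0.83 (FDR = 0.000101). ZCCHC6, also of this list, had 0.44 (FDR = 0.000253) at that scaling, where the median of all tested loci was 0.32. It had 0.15 (FDR = 0.179) without 18-week fish 1 and 0.095 (FDR = 0.656) with the RPE score as a covariate. CCND2A (XLOC_019948), a cyclin, rose to 47.0 ± 7.16 CPM at 18 weeks, against 27.8 ± 4.68 CPM at 6 weeks (log2FC = 0.75, SE 0.103, FDR = 7.35e-07), and was already at 51.9 ± 7.59 CPM at 12 weeks. The other tested locus named CCND2A (XLOC_005634) had 0.20 (FDR = 0.344) with library size alone and -0.09 (FDR = 0.754) without 18-week fish 1. IGF2B, a homologue of the growth factor whose mRNA gave the IGF2BP family its name, did not pass (log2FC = -0.10, SE 0.120, FDR = 0.578). With library size alone 0 loci of the list were called lower and 1 higher, and IGF1RA had a log2FC of -0.94 (FDR = 2.82e-05). With the RPE score as a covariate 2 were called lower, IGF1RA (-1.09, FDR = 0.00204) and DIS3L2 (-1.18, FDR = 0.0171), and 1 higher, MYCB (1.26, FDR = 0.00781), while ARID3B (XLOC_019578) had an FDR of 0.107, CCND1 of 0.0579 and DICER1 of 0.348.

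Among proteins that join IGF2BPs in ribonucleoprotein granules, those that passed the FDR were higher in old fish. Of 15 tested loci none was called at 18 against 6 weeks, 5 passed the FDR as higher (33.3%, against 14% of all tested loci) and 0 as lower (against 15.2%). FXR2, a relative of the fragile X protein, had a log2FC of 0.54 (SE 0.142, FDR = 0.00360), the stress granule protein G3BP1 0.39 (SE 0.0953, FDR = 0.00182), SYNCRIP 0.37 (SE 0.102, FDR = 0.00559), the RNA transport protein STAU1 0.36 (SE 0.118, FDR = 0.0202) and HNRNPUA 0.27 (SE 0.0929, FDR = 0.0256). STAU1 and HNRNPUA did not pass without 18-week fish 1 (log2FC = 0.19, FDR = 0.0622, and 0.21, FDR = 0.0560). Without that fish 5 of the 15 passed as higher and 1 as lower, and with the RPE score as a covariate 0 passed the FDR. Scaling by library size alone, which raises the median of all tested loci, gave 13 of the 15 as higher, with a median of 0.42 against 0.12 with TMM.

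Known mRNA targets of mammalian IGF2BPs that passed the FDR were likewise higher in old fish. Of 11 tested loci none was called at 18 against 6 weeks, and 4 passed the FDR, each as higher (36.4%, against 14% of all tested loci as higher and 15.2% as lower). Among them were MYCB, a homologue of MYC (log2FC = 0.67, SE 0.246, FDR = 0.0380), CTNNB1, which encodes beta-catenin (0.51, SE 0.148, FDR = 0.00832), and the actin gene ACTG1 (0.32, SE 0.120, FDR = 0.0404). GAP43, a growth cone protein, had a log2FC of -0.28 (SE 0.112, FDR = 0.0519), and ACTB of 0.24 (SE 0.136, FDR = 0.187). MYCB also belongs to the let-7 list. MYCA, another homologue of MYC, had 0.11 (FDR = 0.631) with library size alone and -0.30 (FDR = 0.195) without 18-week fish 1. The median of the 11 target loci was 0.24, and 0.04 without 18-week fish 1. With that fish left out 3 of the 11 passed the FDR as higher, ACTG1 did not pass (0.24, FDR = 0.0919) and CTNNB1 had 0.34 (FDR = 0.0246). With the RPE score as a covariate 2 passed as higher, of which MYCB was called (1.26, FDR = 0.00781), and 1 as lower, and CTNNB1 had an FDR of 0.285. Scaled by library size alone, 7 of the 11 passed as higher, with a median of 0.54.

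IGF2BPs are also readers of N6-methyladenosine (m6A), a methyl mark on mRNA. Of 15 tested loci for m6A writers, erasers and other readers none was called at 18 against 6 weeks, and 2 passed the FDR as lower and 2 as higher (13.3% each). These shares do not exceed those of all tested loci (15.2% and 14%), so the counts are no result about the list. YTHDC1, the nuclear reader, had a log2FC of -0.38 (SE 0.0890, FDR = 0.00135) and ZC3H13, a writer subunit, -0.28 (SE 0.0707, FDR = 0.00269). RBM15 (XLOC_021024), another writer subunit, had 0.38 (SE 0.128, FDR = 0.0226) and the eraser ALKBH5 0.35 (SE 0.102, FDR = 0.00889). Without 18-week fish 1 RBM15 (XLOC_021024) had 0.24 (FDR = 0.0732). With the RPE score as a covariate the FDR was 0.359 for this locus, 0.130 for ALKBH5 and 0.295 for YTHDC1, and ZC3H13 had -0.37 (FDR = 0.0112). Scaled by library size alone, 7 of the 15 passed the FDR as higher and 0 as lower, and ZC3H13 had 0.02 (FDR = 0.817).

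Some genes of juvenile growth and neuronal differentiation were lower at 12 than at 6 weeks. Of 13 tested loci, 4 passed the FDR as lower and 0 as higher at 12 against 6 weeks (30.8% of the list as lower, against 0.909% of all tested loci as lower and 1.28% as higher), none of them called. SOX4B, a transcription factor of young neurons, had 72.1 ± 10.7 CPM at 12 weeks, against 112 ± 20.2 CPM at 6 weeks (log2FC = -0.64, SE 0.0982, FDR = 5.60e-05). SOX4A had a log2FC of -0.58 (FDR = 0.0180), the tubulin gene TUBB5 of -0.50 (FDR = 0.0142) and SOX11A of -0.45 (FDR = 0.000235). At the later step 0 of the 13 passed the FDR as lower at 18 against 12 weeks (6.92% of all tested loci did) and 2 passed as higher (15.4%, against 5.19%), or 7 when scaled by library size alone. The loci lower at 12 weeks had log2FC values of -0.07, 0.22, 0.20 and 0.09 at this step for SOX4B, SOX4A, TUBB5 and SOX11A, none of which passed. Whether these steps differ from those of IGF2BP1 and IGF2BP3 was not tested. At 18 against 6 weeks 5 passed the FDR as lower and 2 as higher, and with library size alone 1 and 4. At 12 against 6 weeks 2 passed as lower with library size alone, and 2 with the RPE score as a covariate.

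**Figure D5:**
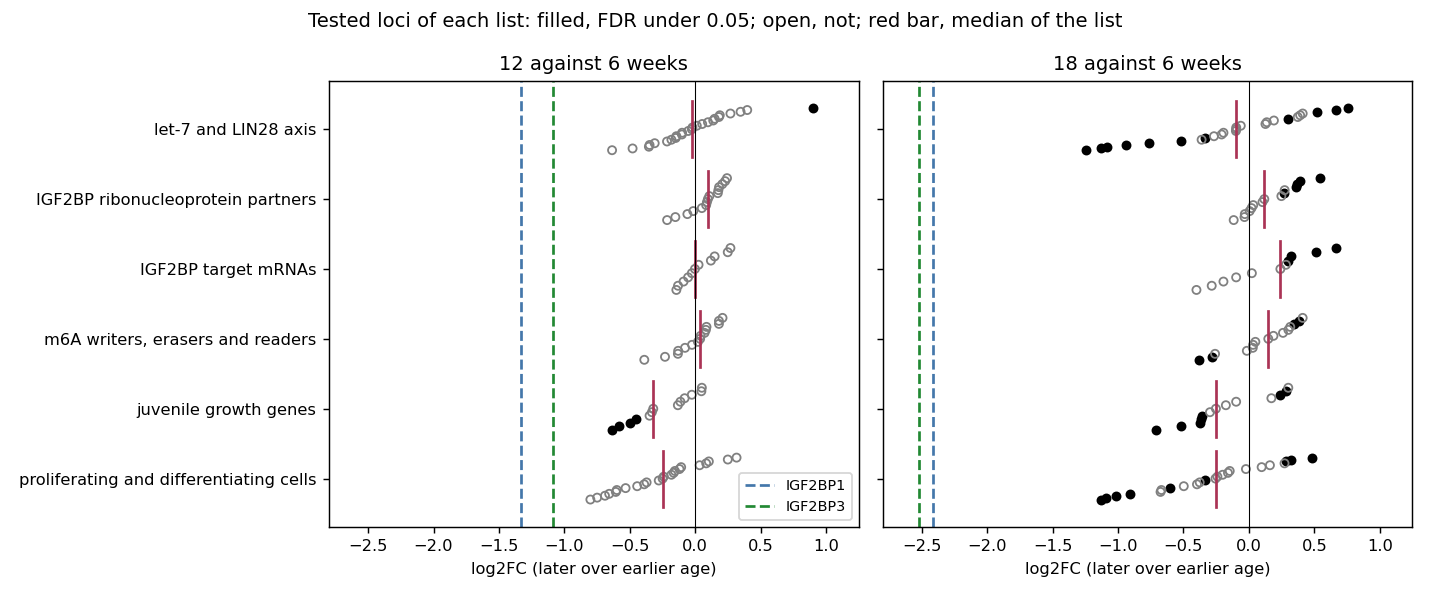
Fitted log2FC (x axes, later over earlier age) of every tested locus of 6 gene lists at 12 against 6 weeks and at 18 against 6 weeks, filled where the FDR was under 0.05, with a bar at the list's median and dashed lines at IGF2BP1 and IGF2BP3. Both dashed lines lie left of every list locus in both panels. IGF2BP1 and IGF2BP3 were put forward for their difference at 18 against 6 weeks. Both panels share the 6-week fish, so nothing is read from the place of these lines.

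The 5 named loci most like each of the 2 genes across the 30 fish are given as a description. For IGF2BP1 the highest Pearson r of log2 CPM were 0.81 with ISLR2, a membrane protein of axon guidance, 0.80 with the linker histone gene H1F0, 0.80 with MARCKSB, an actin-binding kinase substrate, 0.79 with CHAC1, an enzyme of glutathione breakdown, and 0.78 with STRA6, the retinol-binding protein receptor of RPE. Of all tested loci, 1% exceeded 0.69. For IGF2BP3 they were 0.86 with PPP2R5B, a phosphatase subunit, 0.84 with the histone gene HIST1H2BD, 0.83 with the kinase gene BRSK2, 0.83 with CHAC1 and 0.82 with the histone variant gene H2AFVA, and 1% of all loci exceeded 0.72. CHAC1 was in both sets and had a log2FC of -2.18 at 18 against 6 weeks. These correlations describe fish that share age, library and depth.

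With the mean of each age taken off, the order was another. Among the 5 highest r with IGF2BP1 were then 0.64 with CCDC43, 0.63 with the sphingosine kinase gene SPHK2, 0.62 with B3GALT4, a galactosyltransferase gene, and 0.60 with the carboxypeptidase gene CPM (XLOC_004957). For IGF2BP3 they were 0.56 with YAF2, 0.54 with PCID2, 0.54 with KLHL21, 0.53 with POMT2 and 0.52 with PAN3. No locus was in both sets of 5, and 1% of all tested loci exceeded 0.44 and 0.40 for IGF2BP1 and IGF2BP3.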

How the data were processed

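Retinal RNA of 30 fish (10 per age) was sequenced with QuantSeq 3′. Ages and fish numbers came from the sample titles. The authors' deposited files hold raw read counts per locus, made with Trim Galore 0.6.7, STAR 2.7.0 and HTSeq 0.11.2 according to the submitters' processing notes, on the GRZ assembly with a custom annotation. How reads shared by related loci, such as the IGF2BP paralogs, were counted is not given in the sources used here, so paralogs may exchange reads. Reads on no feature (18.0% to 27.7% per fish) and ambiguous reads (0.838% to 1.85%) were left out. Gene names, and the percent of single cells with a gene detected as pooled by the authors, came from their deposited annotation of the loci, whose coordinates were not used. Depth ran between 3552371 and 5840792 counts per fish, and the fewer counts a gene had, the larger its counting error.

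Loci that passed filterByExpr (13975 of 24989) were scaled with TMM and fitted over all fish with glmQLFit and glmQLFTest (edgeR 4.0.16, limma 3.58.1, R 4.3.3), with 1 coefficient per age and Benjamini-Hochberg adjustment over all tested loci. A call needed an FDR under 0.05 and a log2FC of at least 1 in size. Log2 CPM used a prior count of 2. The SE was the log2FC over the square root of F, and intervals were normal 95% intervals. Correlations within an age used permutation tests with 100000 resamples, and exact ones over 8 fish. The code was tested on simulated data. The members and gene lists were chosen with earlier results of these data known. Named were all members, up to 5 called loci per list with the largest size of log2FC at 18 against 6 weeks (by FDR alone where fewer than 2 were called), RPE65A, and the 5 loci most like IGF2BP1 and IGF2BP3. IGF2B, GAP43, ACTB, ZCCHC11, ZCCHC6, DIS3L2, DICER1, CCND2A, IGF1RB, MYCA, MCM6 and the 12-week values of SOX4A, SOX11A and TUBB5 were named after their values were seen. Some loci that this rule names are not reported here. Lists of lens, immune, red blood cell, Müller glia, photoreceptor, inner neuron and oligodendrocyte markers were also examined. Alternatives were library size alone, RLE factors, DESeq2 1.42.0, no filter, the RPE score as a covariate, a replicate block, fits of 20 fish, and each fish left out. For gene lists, the RPE covariate and 18-week fish 1 left out were added after seeing the data.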

Additional observations from a re-analysis of the deposited data

Results flagged for a closer look

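Among 15 groups of 10 fish checked (5 loci at 3 ages), 4 held 1 fish whose gap to its nearest neighbour took an unusually large part of the group's range by Dixon's test. For normally distributed values chance gives such a fish in about 1 of 20 groups. Whether these levels, some of which rest on few counts, are so distributed was not tested. IGF2BP1 was at 7.60 CPM in 12-week fish 1, and the next fish of that age had 4.02 CPM. IGF2BP3 was at 2.97 CPM in 18-week fish 3, and the next fish of that age had 1.77 CPM. HMGA1 was at 100.2 CPM in 12-week fish 4, and the next had 71.6 CPM. The locus identified as hmga2 was at 9.47 CPM in 6-week fish 6, and the next had 6.22 CPM. These were 4 different fish, and all 4 lay at the high end of their group.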

How the results depend on the processing

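The log2FC of IGF2BP1 and IGF2BP3 kept its sign in all 3 contrasts under every alternative. With 1 fish left out it ranged from -1.55 to -1.20, -2.49 to -2.30 and -1.22 to -0.87 for IGF2BP1 at 12 against 6, 18 against 6 and 18 against 12 weeks, and from -1.17 to -1.01, -2.69 to -2.45 and -1.59 to -1.36 for IGF2BP3. With library size alone IGF2BP1 had -1.21, -2.11 and -0.91 and IGF2BP3 -0.97, -2.21 and -1.24. Against the midpoint, IGF2BP1 ranged from -0.34 to 0.01 (0.0109 without 12-week fish 8) and IGF2BP3 from 0.11 to 0.25. Deviations of same-numbered fish from the mean of their age had r of -0.11 to 0.19 over 30 pairs (median 0.01). Of 30 fish, 6 correlated best with a fish of their own number, and how many would do so by chance was not worked out. Whether the numbers mark a weak link between fish was not tested. With the number as a replicate block, IGF2BP1 had -1.38, -2.41 and -1.03 and IGF2BP3 -1.07, -2.49 and -1.42, and loci called lower and higher were 25 and 37, 291 and 190, and 102 and 37.

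With library size alone, hmga2 at 18 against 12 weeks was 0.0985, against -0.08 with TMM and -0.17 to 0.02 with 1 fish left out (0.0064 without 12-week fish 3 and 0.0234 without 18-week fish 1), IGF2BP2A and HMGA1 at 18 against 6 weeks were 0.2667 and 0.2511, and at 18 against 12 weeks 0.39 (FDR = 0.00139) and 0.34 (FDR = 0.0310). IGF2BP2A at 18 against 12 weeks had an FDR of 0.0384 without 18-week fish 8. Loci called lower and higher were 23 and 46 at 12 against 6, 284 and 183 at 18 against 6 and 107 and 36 at 18 against 12 weeks, and by FDR 33 and 97 against the midpoint. With library size alone they were 14 and 75, 113 and 531, 50 and 69, and 20 and 50, so higher loci made up 84.3%, 82.5% and 58.0% of calls in the age contrasts, against 66.7%, 39.2% and 25.2% with TMM. Without the filter 44 were lower at 12 against 6, 657 lower and 322 higher at 18 against 6, and 176 and 64 at 18 against 12 weeks. With the RPE covariate 91 were higher at 12 against 6 and 59 at 18 against 12 weeks. With 1 fish left out, lower and higher calls ranged from 22 to 32 and 34 to 65 at 12 against 6, 236 to 317 and 171 to 225 at 18 against 6, 76 to 132 and 32 to 40 at 18 against 12 weeks, and 8 to 59 and 27 to 156 against the midpoint. The cause of these shifts was not tested.

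Signs of correlations within an age were not stable. Without the 2 farthest fish, r of IGF2BP1 with IGF2BP3 was -0.1279 at 6 and -0.1074 at 18 weeks, of IGF2BP1 with the RPE score -0.0344 at 12 weeks and with the library total -0.2967 at 6 weeks, and of IGF2BP3 with the RPE score -0.268 at 6 weeks and with the library total 0.5514 at 18 weeks. With library size alone, r with the proliferation score at 12 weeks was 0.1435 for IGF2BP1 and -0.0704 for IGF2BP3. At 2 to 48 counts per fish, small differences in either gene were not detectable.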
